A study of Rattus norvegicus with 4 samples.

Results

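The genes described here are 10 components of the circadian clock: the repressors Per1, Per2, Per3, Cry1 and Cry2, the nuclear receptors Nr1d1 and Nr1d2, the output factors Dbp and Tef, and the activator Clock. They were taken as every probe set that the platform annotation assigns to exactly 1 gene symbol, that symbol being one of the 10, which gave 20 of 31042 probe sets and all 10 genes. The samples were ventral prostate lobes of male F344 rats, an inbred laboratory strain, that were 6 weeks old. The treated group received 300 mg/kg of PhIP, a mutagenic heterocyclic amine found in cooked meat, and the control group none, and both were killed after 2 days. Each array carried a mix of RNA from 2 rats, so the 4 rats of each group gave 2 arrays, called control 1, control 2, PhIP 1 and PhIP 2, and n is 2 pools in every group below. The labels name no vehicle for the controls, and the sources used here give neither the hour of killing nor the light schedule. All arrays belong to a single time after dosing, so no cycle could be followed.

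The mammalian clock is a feedback loop of transcription. CLOCK, or its relative NPAS2, pairs with BMAL1 and binds E-box sequences, which switches on the Per and Cry genes, the Nr1d genes and the genes for the PAR bZIP factors DBP, TEF and HLF. PER and CRY proteins return to the nucleus and block the activators, while the NR1D proteins (REV-ERBs) repress Bmal1 and Npas2 through a separate element that the ROR receptors activate. In peripheral rodent tissues the direct E-box targets therefore peak at about the opposite time of day from Bmal1 and Npas2, and a shift of phase can move these arms in opposite directions. Cry1 also carries ROR elements and peaks later than the other E-box targets, nearer to Bmal1, and is grouped here with the opposite arm, while Cry2 cycles weakly and is placed in neither.

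Median signals were 25.5 to 27.4 in control and 23.1 to 23.2 in PhIP. The tissue label fitted its markers, since the secretory genes Pbsn (signals of 4273 to 4898) and Sbp (6436 to 8219) were bright on all 4 arrays. Control 2 stood apart from the other arrays. The 3′ over 5′ signal ratio, which climbs as RNA degrades, was 5.71 there for actin against 3.49 to 4.18 on the other arrays and 2.06 for Gapdh against 1.34 to 1.45, and its correlation with control 1 (r = 0.972 across tested probe sets) was below that of control 1 with either PhIP array (0.980 and 0.979). The deposited values are Affymetrix MAS5 signals on a linear scale, and fold changes are differences in log2(signal + 10), which understates the change of dim genes. The number of arrays limits the precision.

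The comparison of PhIP with control asked whether clock gene expression in the gland differed 2 days after dosing. No difference was detected for any of the 9 genes that could be tested, which were all but Per3. Of the 20 probe sets of the 10 genes, 14, for 9 genes, passed the filter on low signal and were tested. Of these 14, 0 passed an adjusted p of 0.05 in limma's moderated test, where 0.0268% of all 18625 tested probe sets did. At an unadjusted p under 0.05 the count was also 0 of 14, against 13.0% of all tested probe sets. The lowest adjusted p among the 14 was 0.481. A log2 change of at least 0.5 in either direction was seen in 1 of the 14, against 10.6% of all. With the brightest tested probe set of each gene, the median log2 fold change of the 9 genes was 0.08 (SD over genes 0.13), and that of all tested probe sets was −0.03. All 14 of the 95% intervals of the log2 fold change included 0, and 12 lay within a change of 1, that is within a doubling or a halving. Both PhIP arrays lay outside the control range on the same side in 4 of the 14, all of them higher, against 45.8% of all tested probe sets in either direction.

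**Figure D1:**
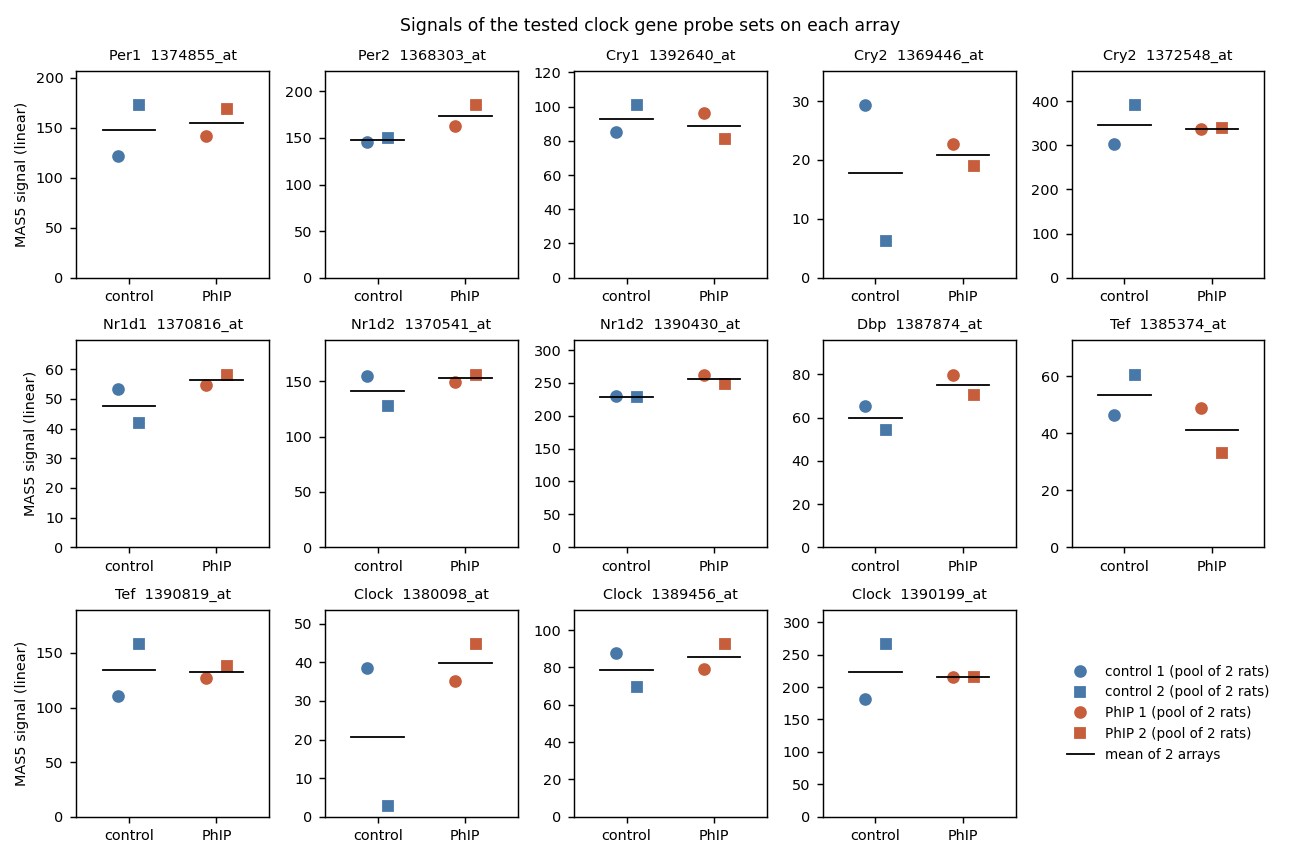
MAS5 signal on a linear axis starting at 0 for each of the 14 tested clock gene probe sets, with 1 panel per probe set, control arrays in blue, PhIP arrays in red and a bar at each mean of 2 arrays. In Per2, Nr1d1, Dbp and Nr1d2 probe set 1390430_at both PhIP arrays lie above both control arrays; in the other 10 panels the groups overlap, and in Clock probe set 1380098_at control 2 lies alone at 2.8.

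The PER proteins are the rhythmic part of the repressor complex. Per1 gave a signal of 122 in control 1, 172.5 in control 2, 141.8 in PhIP 1 and 168.2 in PhIP 2, and signals are listed in this order hereafter. The PhIP values lay between the control values, and the log2 fold change was 0.08 ± 0.19 (SE; adjusted p = 0.867), a fold of 1.06 with a 95% interval of 0.784 to 1.43. Per2 read 145.4 and 150.2 in control against 162.7 and 185.2 in PhIP. Both PhIP arrays were above both control arrays, as in 19.8% of all tested probe sets, and the log2 fold change of 0.22 ± 0.14 did not pass (adjusted p = 0.531). Its interval ran from −0.10 to 0.54. A further Per2 probe set, 1378560_at, read 3.9 to 10.1 and was not tested. Per3 had 2 probe sets, with signals of 1.8 to 2.9 and of 3.8 to 12.5 over the 4 arrays. Both were too dim to be tested, so nothing can be said of this gene.

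The promoter of Per2 and those of Nr1d1, Tef and Bmal1 are shown because they carry, within 250 bases before the start site, the elements by which the loop is wired. Searched on both strands of these windows were the E-box CACGTG, its variant CACGTT, the D-box bound by PAR bZIP factors (TTATGTAA or TTACGTAA), the cyclic AMP element TGACGTCA, and the ROR response element that REV-ERBs share. The sequences are from RefSeq, build GRCr8, written 5′ to 3′ on the strand of the gene, with matches in capitals:
Per2, chr9:99496994-99497243, minus strand: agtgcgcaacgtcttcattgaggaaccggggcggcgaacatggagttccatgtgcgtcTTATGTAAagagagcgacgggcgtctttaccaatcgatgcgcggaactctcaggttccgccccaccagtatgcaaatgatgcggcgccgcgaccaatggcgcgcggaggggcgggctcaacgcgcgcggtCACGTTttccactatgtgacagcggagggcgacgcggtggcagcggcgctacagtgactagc
Nr1d1, chr10:84229455-84229704, minus strand: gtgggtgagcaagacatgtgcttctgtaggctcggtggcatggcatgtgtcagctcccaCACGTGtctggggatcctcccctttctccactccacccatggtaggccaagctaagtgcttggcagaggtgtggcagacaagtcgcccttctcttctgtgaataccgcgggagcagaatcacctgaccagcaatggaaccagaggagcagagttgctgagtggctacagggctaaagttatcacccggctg
Tef, chr7:115206577-115206826, plus strand: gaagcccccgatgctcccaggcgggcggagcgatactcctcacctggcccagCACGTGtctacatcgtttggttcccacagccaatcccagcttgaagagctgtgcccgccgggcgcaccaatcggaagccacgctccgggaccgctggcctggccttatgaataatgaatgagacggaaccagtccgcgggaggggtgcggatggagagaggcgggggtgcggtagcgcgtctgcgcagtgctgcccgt
Bmal1, chr1:176766078-176766327, plus strand: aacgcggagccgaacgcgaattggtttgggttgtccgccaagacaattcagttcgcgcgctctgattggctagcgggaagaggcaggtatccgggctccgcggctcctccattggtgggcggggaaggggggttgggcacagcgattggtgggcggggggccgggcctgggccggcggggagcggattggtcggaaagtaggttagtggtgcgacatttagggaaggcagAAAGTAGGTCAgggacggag

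The capitals in Per2 are a D-box beginning 192 bases before the start site and the variant CACGTT beginning at 62 bases. In Nr1d1 and Tef they are the E-box, beginning at 191 and 198 bases, and in Bmal1 the ROR response element, beginning at 20 bases. The table held 11 windows for 9 of the 10 genes, with 2 each for Nr1d1 and Clock. Of the 2 Nr1d1 windows, the one with the E-box is printed. Matches are counted by gene, while the shares beside them are of single windows. The E-box was found in windows of 2 of the 9 genes (Nr1d1 and Tef), against 5.59% of all 33469 windows of that length, and CACGTT in 3 (Per2, Cry2 and a separate window of Nr1d1), against 4.07%. The D-box TTATGTAA was in 1 (Per2; 0.828% of all windows) and TTACGTAA in 0 (0.108%), as were the cyclic AMP element (1.59%) and the ROR response element (0.317%). These are matches of letters only. Among the 10 genes, those with such a match were Per2, Nr1d1, Tef and Cry2. By the brightest probe set, their log2 fold changes were 0.22, 0.21, −0.0015 and −0.02, and none passed. Bmal1, which is printed above but is not one of the 10, stood at −0.22 and did not pass.

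The CRY proteins carry most of the repressing activity of the complex. Cry1 read 85.1 and 100.9 in control against 96.4 and 80.9 in PhIP, so that the groups overlapped. Its log2 fold change was −0.06 ± 0.17 (adjusted p = 0.895), with an interval of −0.46 to 0.33. For Cry2 the brighter probe set, 1372548_at, read 302.1 and 391.2 in control against 336.6 and 339.7 in PhIP. The PhIP arrays were nearly equal and lay inside the control range, with a log2 fold change of −0.02 ± 0.14 (adjusted p = 0.954). The dimmer Cry2 probe set, 1369446_at, read 29.3 and 6.2 in control against 22.7 and 18.9 in PhIP. Control 2 alone was low there, and the fold change of 0.28 ± 0.41 (adjusted p = 0.786) had the sign opposite to that of the brighter probe set. It was 0.50 with a constant of 2 and 0.62 with none.

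Nr1d1 encodes REV-ERB alpha, a haem-binding repressor with one of the strongest daily rhythms in peripheral tissue. Its signals were 53.4 and 41.9 in control against 54.6 and 58.2 in PhIP. The groups did not overlap, but PhIP 1 exceeded control 1 by little, and the log2 fold change of 0.21 ± 0.19 did not pass (adjusted p = 0.658; interval −0.23 to 0.65). Nr1d2 encodes the related REV-ERB beta. Its brightest probe set, 1390430_at, read 230 and 228.5 in control against 262.5 and 248.2 in PhIP. This was the narrowest of the 14 estimates, 0.15 ± 0.12 on the log2 scale (adjusted p = 0.619), a fold of 1.11 with an interval of 0.917 to 1.34. Probe set 1370541_at of the same gene read 154.7 and 127.3 in control against 149.7 and 155.9 in PhIP, with overlapping groups and a log2 fold change of 0.11 ± 0.15 (adjusted p = 0.763). The probe set 1370540_at read 6.7 to 19.5 and was not tested.

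Dbp and Tef encode PAR bZIP transcription factors, which carry the rhythm to output genes such as those of detoxification. Dbp read 65.6 and 54.3 in control against 79.9 and 70.3 in PhIP. Both PhIP arrays were above both controls, and the log2 fold change was 0.29 ± 0.18 (adjusted p = 0.528), a fold of 1.22 with an interval of 0.916 to 1.62. The groups did not separate in Tef. Its brightest probe set, 1390819_at, read 111 and 158 in control against 126.7 and 138.4 in PhIP, a log2 fold change of −0.0015 ± 0.18 (adjusted p = 0.997), and the control arrays enclosed the PhIP arrays. Tef probe set 1385374_at read 46.2 and 60.5 in control against 48.9 and 33.2 in PhIP, a change of −0.32 ± 0.23 (adjusted p = 0.585) with overlapping groups. A dim Tef probe set, 1369919_at, read 8.7 to 23.9 and was not tested.

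Clock encodes the histone acetyltransferase subunit of the activator and is only weakly rhythmic in most tissues. Its brightest probe set, 1390199_at, read 181.2 and 266.1 in control against 215.8 and 215.9 in PhIP. The PhIP arrays lay inside the control range, and the log2 fold change was −0.02 ± 0.18 (adjusted p = 0.962). Probe set 1389456_at read 87.5 and 69.3 in control against 79.1 and 92.4 in PhIP, a change of 0.12 ± 0.18 (adjusted p = 0.797). Probe set 1380098_at gave the largest fold change of the 14, 1.00 ± 0.54 (adjusted p = 0.481), or 1.58 with a constant of 2 in place of 10 and 1.93 with none. It rests on 1 array: the signals were 38.5 and 2.8 in control against 35.1 and 44.7 in PhIP. Without control 1, this probe set passed (log2 fold change 1.96, adjusted p = 0.00163, the lone control being assumed to vary like the other arrays), as did 12.5% of all tested probe sets in that setting, and without control 2 the fold change was 0.03. A further Clock probe set, 1369168_a_at, read 1.5 to 6.2 and was not tested. Among the 4 genes with several tested probe sets, the signs disagreed in 2, Cry2 and Clock, whose brightest probe sets stood at 0.11 each after median centring.

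The differences between the control pools were larger than those between the groups for most of these probe sets. The former are differences between single arrays and the latter between means of 2 arrays, which vary less, so the values for all tested probe sets are given beside them. The absolute difference between control 1 and control 2 exceeded the absolute log2 fold change in 11 of 14 (78.6%), against 56.0% of all tested probe sets. Its median was 0.31 on the log2 scale, against 0.17 for the difference between the PhIP pools and 0.13 for the fold change. Over all tested probe sets these medians were 0.21, 0.14 and 0.18. Control 2 was the array farthest from the median of the other arrays in 10 of the 14 (71.4%), against 41.3% of all tested probe sets. Relative to control 1 it was higher for Per1 (0.47 on the log2 scale), the brightest probe sets of Tef (0.47), Clock (0.53) and Cry2 (0.36), and Cry1 (0.22). It was lower for Nr1d1 (−0.29) and Dbp (−0.23), and level for Per2 (0.04). Control 2 had the higher 3′ over 5′ ratios, and its skeletal muscle markers summed to 1663 against 913.9 in control 1. The part of either in these values was not tested.

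**Figure D2:**
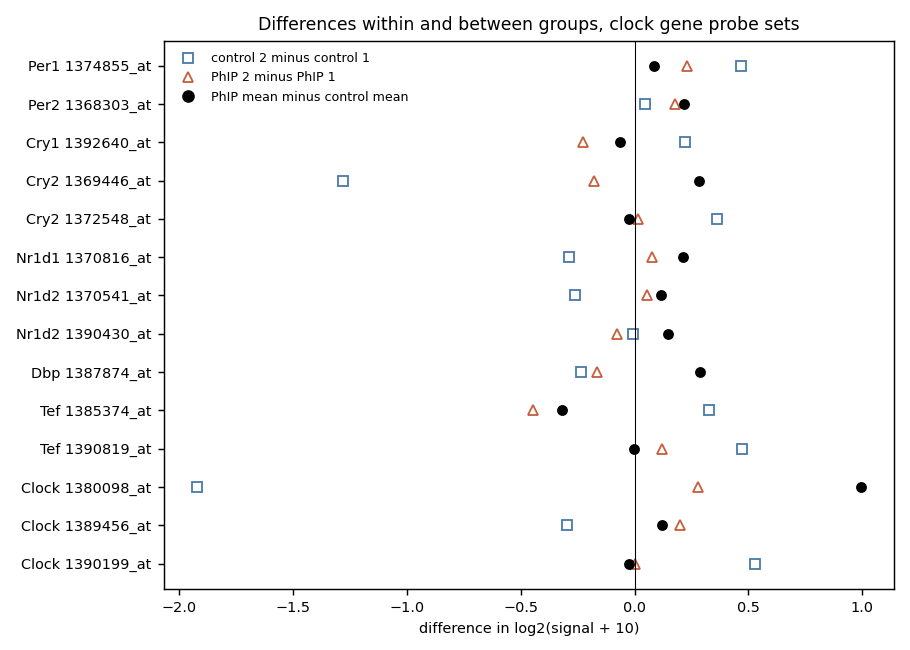
Differences in log2(signal + 10) for the 14 tested clock gene probe sets: control 2 minus control 1 (open blue squares), PhIP 2 minus PhIP 1 (open red triangles) and the mean of the PhIP arrays minus that of the control arrays (black dots). The square lies farther from 0 than the dot in 11 of the 14, the exceptions being Per2, Nr1d2 probe set 1390430_at and Dbp.

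The wider clock pathway was followed in a further list of 23 genes, of which 19 were on the array with 38 probe sets and 17 were tested with 31. Of these 31 probe sets, 0 passed an adjusted p of 0.05 in either direction with limma, and at an unadjusted p under 0.05 there were 0 higher (5.36% of all tested probe sets) and 2 lower (7.61%). The lower ones were Npas2 and a probe set of Hlf. Per gene, the median log2 fold change of the 17 was 0.04 (SD over genes 0.29). Without control 1, 7 of the 31 passed, in Csnk1d, Csnk1a1, Rora and Wee1, where that setting called 12.5% of all tested probe sets.

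Npas2, the alternative partner of BMAL1, read 25.9 and 21.2 in control against 10 and 5.8 in PhIP. Every PhIP array was below every control array, as in 26.0% of all tested probe sets, and the log2 fold change was −0.91 ± 0.27 with an interval of −1.54 to −0.29. It did not pass the adjustment (adjusted p = 0.241). Npas2 passed the filter on low signal only through the control arrays: its mean log2 level was 5.07 in control and 4.15 in PhIP, where the filter lay at 4.60. In 5 of 16 alternatives it was below the filter and was not tested. Bmal1, the obligate partner of CLOCK, read 45.4 and 43.1 in control against 33.9 and 39.7 in PhIP, with no overlap and a log2 fold change of −0.22 ± 0.19 (adjusted p = 0.656). Bmal2 read 6.4 to 18 and was not tested.

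The other PAR bZIP gene, Hlf, had 3 tested probe sets, all with a negative log2 fold change, of −0.60 ± 0.25 (adjusted p = 0.369), −0.29 ± 0.24 and −0.13 ± 0.24. The groups did not overlap in the first of them, 1374709_at, with 31.2 and 46.8 in control against 25.3 and 18.9 in PhIP. Nfil3, the bZIP repressor that competes with the PAR factors for the D-box, stood at −0.02 ± 0.23. The E-box repressor genes Bhlhe40 and Bhlhe41 stood at 0.21 ± 0.26 and −0.21 ± 0.21, and Rora, the activator that opposes the REV-ERBs, at 0.34 ± 0.25. None of these passed.

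Genes for regulators of clock proteins, most of them kinases or ubiquitin system enzymes, were represented by 19 tested probe sets for 8 genes, with a median log2 fold change of 0.05. The casein kinase genes, whose products phosphorylate PER, gave small estimates that did not pass: Csnk1d ranged from −0.18 to 0.34 over 5 probe sets, Csnk1a1 from −0.19 to 0.21 over 3, and Csnk1e from −0.20 to −0.08 over 3. The lowest p here was that of Csnk1a1 probe set 1374646_at, with 1315.5 and 1159.7 in control against 1406.9 and 1393.4 in PhIP (0.18 ± 0.09, adjusted p = 0.444). Usp2, a rhythmic deubiquitinase gene, stood at 0.21 ± 0.11 and 0.05 ± 0.12 in its probe sets. The ubiquitin ligase genes Btrc (−0.39 to 0.25 over 3 probe sets) and Fbxw11 (−0.12 ± 0.14), the kinase gene Gsk3b (0.04 ± 0.15) and Timeless (0.10 ± 0.20) did not pass. Of the output genes, Nampt, the rate-limiting enzyme of NAD salvage, stood at 0.23 ± 0.21. Wee1, which encodes a mitotic inhibitor kinase, stood at −0.02 ± 0.16 and 0.23 ± 0.23.

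**Figure D3:**
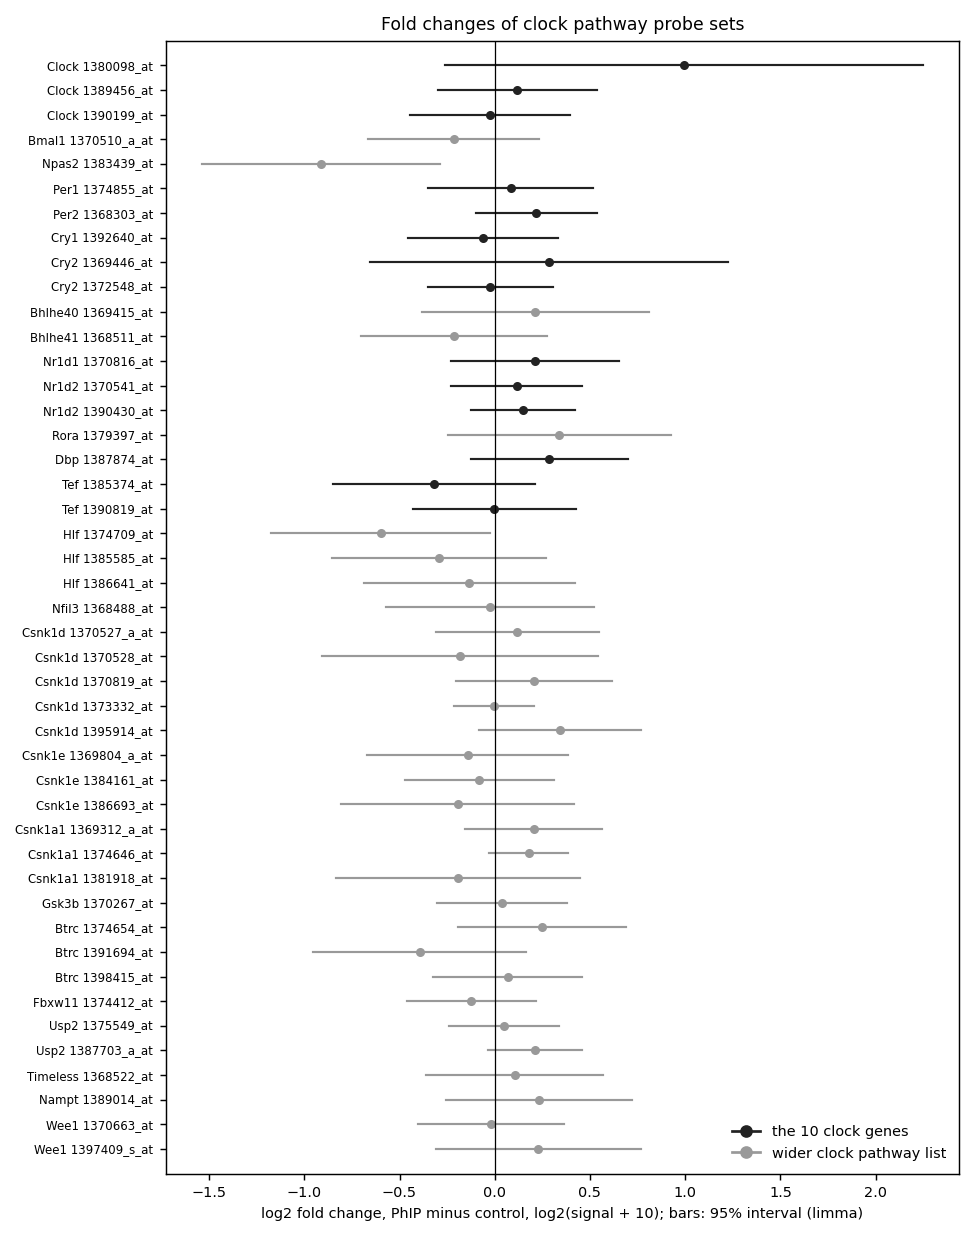
Log2 fold change of PhIP over control (dot) with its 95% interval from limma (bar) for 45 tested clock pathway probe sets, the 14 of the 10 clock genes in black and the 31 of the wider list in grey. The intervals include 0 except for Npas2 and Hlf probe set 1374709_at, and the widest is that of Clock probe set 1380098_at.

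Whether the arms of the loop moved apart was examined by setting the E-box phase genes against those of the opposite phase, each gene by its brightest tested probe set. The E-box phase arm held Per1, Per2, Nr1d1, Nr1d2, Dbp, Tef, Hlf and Bhlhe41, and its mean log2 fold change was 0.05, with 5 genes above 0 and 3 below. The opposite arm held Bmal1, Npas2, Clock, Cry1 and Nfil3, with a mean of −0.25 and all 5 below 0. Of these, Clock and Nfil3 stood at −0.02 each, where the median of all tested probe sets was −0.03. Median centring adds the same amount to every fold change. Under it Cry1 and Clock stood at 0.074 and 0.11, and Nfil3 was also above 0. The dimmer tested probe sets of Clock stood at 0.12 and 1.00 before centring, the last resting on 1 array. After scaling to the hybridization controls, under which Npas2 dropped below the filter, the opposite arm's mean was 0.11. The difference between the arms, which a scaling factor common to an array hardly moves, was 0.30 on the log2 scale with Npas2, which entered through its control level alone, and 0.14 without it. By array, relative to the control mean, the difference with Npas2 was 0.03 and −0.03 in control 1 and 2 and 0.31 and 0.30 in PhIP 1 and 2. The control values mirror each other because they are taken from their own mean. Without Npas2 the arrays were less alike. The difference was then 0.19 with PhIP 1 alone and 0.085 with PhIP 2 alone, and 0.061 against control 1 alone and 0.21 against control 2 alone.

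Without Npas2 the opposite arm's mean was −0.08. The genes of the E-box phase arm differed among themselves. Dbp, Nr1d1, Per2 and Nr1d2 were higher on both PhIP arrays than on either control array, and Bhlhe41 was lower on both. Of all tested probe sets, 19.8% were higher and 26.0% lower in this way. Per1, Tef and the brightest probe set of Hlf overlapped, while Hlf probe set 1374709_at was lower on both. Bhlhe40, with a log2 fold change of 0.21, was listed in neither arm. Among the 10 genes alone, the arms (6 against Clock and Cry1) differed by 0.20. That value rests on the placement of Cry1 and of the weakly rhythmic Clock, and on the Clock probe set used. Neither Clock nor Cry1 had groups that separated. The values of the arms are descriptions of 4 arrays and carry no test. The difference ranged from 0.13 to 0.34 over 17 settings, and from 0.06 to 0.21 without Npas2.

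**Figure D4:**
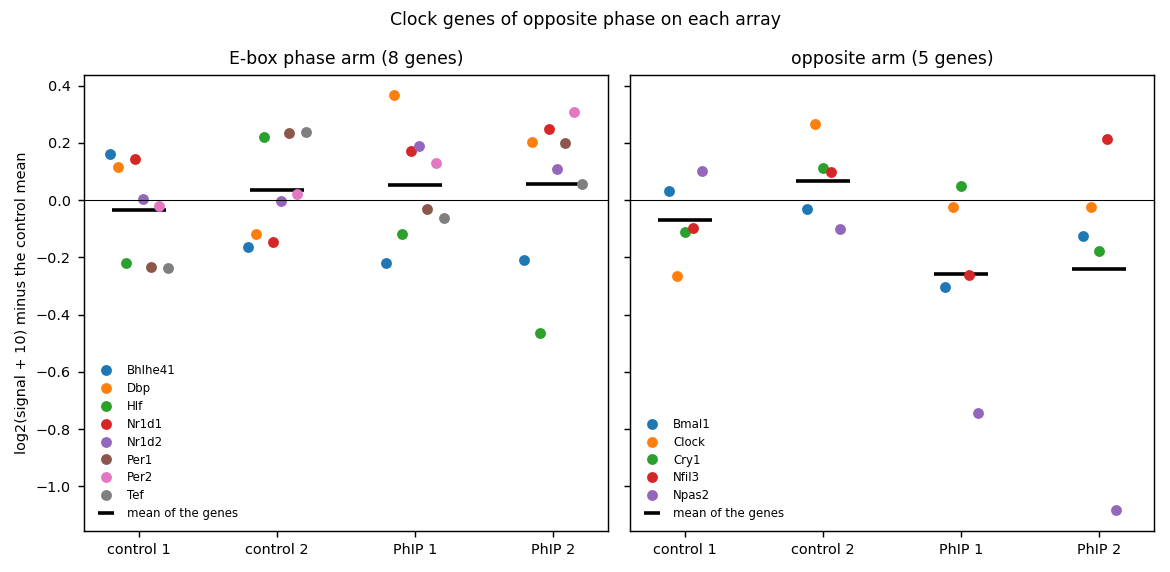
Log2(signal + 10) on each array minus the mean of the control arrays, for the 8 genes of the E-box phase arm (left) and the 5 of the opposite arm (right), 1 colour per gene and a black bar at the mean of the genes. The left means lie between −0.04 and 0.06 on all arrays, and the right means are −0.26 and −0.24 on the PhIP arrays, where Npas2 lies lowest.

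Summed marker signals of several cell types stood apart between the groups, and most cell types have a clock of their own. No marker probe set passed an adjusted p of 0.05 in limma's moderated test, the lowest being 0.0517 for Acta2 and for Actg2. Groups did not overlap in 45.8% of all tested probe sets. Signals were summed over the markers on the array, each by its brightest probe set. The smooth muscle markers (6 of 6 tested) had a summed signal of 5087 to 5190 in control and of 3131 to 3266 in PhIP, and the fibroblast markers (6 of 6) of 8755 to 11240 and of 6734 to 6778. The skeletal muscle markers (6 of 8 tested) summed to 913.9 and 1663 in control 1 and 2 and to 503.7 and 430.1 in PhIP. The sum in control 1 was mostly Acta1 (658.2) and Tnnc2 (197.7). These, Ckm and Tnni2 were lower on both PhIP arrays. Myl1 (5.2 and 305.6 in control, 4.5 and 9.1 in PhIP) and Myh4 (0.5 and 164.6, 6.6 and 3.8) overlapped and were high in control 2 alone. Adipocyte markers (3 of 6 tested) summed to 195.5 to 309.1 and 83.1 to 154.2, endothelial markers (4 of 5) to 194.6 to 208.8 and 123.8 to 132.3, and nerve markers (2 of 4) to 82.8 to 102.5 and 43.7 to 51.8. Luminal epithelial markers (8 of 9 tested) summed to 17800 to 19020 in control and 20440 to 20790 in PhIP, and macrophage and leukocyte markers (5 of 5) to 5234 to 5367 and 6602 to 6649. The latter sum is mostly Lyz2 and Cd14, and Cd68 (−0.44) and Csf1r (−0.20) had negative log2 fold changes. Of the luminal markers 7 were higher on both PhIP arrays, while Pbsn (−0.06) overlapped. Of the fibroblast markers 5 were lower on both, while Dcn (−0.09) overlapped. The sums of the basal epithelial markers (3 of 4) overlapped, with 829.5 to 846.6 and 761.8 to 863.9. Among these markers Krt5 and Krt15 overlapped, while Krt14 was lower in PhIP (77.4 and 66.3) than in control (94.7 and 101.8). None of these probe sets was at 0 on any array. In such bulk samples fewer cells of a type and less RNA per cell cannot be told apart, and the part of these differences in the clock gene values was not tested.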

How the data were processed

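Gene expression was measured with 4 Affymetrix arrays, 2 of control and 2 of PhIP-treated rats, from 5 µg of total RNA each. The deposited values are MAS5 intensities on a linear scale, 1 per probe set, made by the authors with MAS5 per the submitters' processing notes. The sources used here give no version, scaling target or detection calls. All arrays had a mean of 100.04 after trimming 2% at each end, so the authors' scaling set a common trimmed mean.

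The 57 manufacturer's control probe sets were left out. Of 31099 probe sets, 20832 carried 1 symbol in the platform annotation, 436 several and 9831 none. All 20 clock gene probe sets matched RefSeq (GRCr8) by Entrez identifier, and 0 symbols changed. Values were analysed as log2(signal + 10). Probe sets above the 40th percentile of mean log2 (18625, with signal plus constant averaging 24.3 or more) were tested, and 12417 were left untested. Groups were compared with limma's moderated test (limma 3.58.1, R 4.3.3, eBayes with trend; 2 residual and 5.67 prior degrees of freedom), two-sided, with Benjamini-Hochberg adjustment over all tested probe sets. It was checked on simulated data. Pools are separate rats, so p-values rest on the spread between pools, which the test shares in large part across probe sets of similar signal. Plots used Python 3.11.15 and matplotlib 3.10.9.

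The rule for names took every probe set of the 10 genes and, of the wider list, allowed any gene with a tested probe set. No gene was named for a similar pattern, since 4 arrays are too few. The members and lists were chosen with earlier results of these data known. Alternatives were other constants, filters, scalings and variance models, the replicate number as a block, an average over each gene's probe sets, and leaving out each array. The labels do not say that shared numbers pair the arrays.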

Additional observations from a re-analysis of the deposited data

How the results depend on the processing

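No clock gene probe set passed in any of 12 alternatives that kept all 4 arrays (lowest adjusted p = 0.152), nor without control 2, PhIP 1 or PhIP 2. The count was 0 to 1 when each array was left out, the 1 being Clock probe set 1380098_at without control 1, where 12.5% of all tested probe sets passed. After median centring 2 of the 14, and after scaling to the hybridization controls 4, were higher at an unadjusted p under 0.05, against 13.5% and 19.4% of all tested probe sets. These scalings moved the median of all tested probe sets from −0.03 to 0.11 and 0.18. Under them the median of the clock genes was 0.22 and 0.30, and it ran from −0.15 (without control 1) to 0.17 (without control 2). Of the 14 probe sets, 6 kept their sign in every setting that tested them: Per2, Nr1d1, Dbp, Nr1d2 probe set 1390430_at, Tef probe set 1385374_at and Clock probe set 1380098_at. Their sizes still moved when single arrays were left out, from 0.13 to 0.31 for Per2, 0.066 to 0.35 for Nr1d1, 0.17 to 0.40 for Dbp, 0.11 to 0.19 for Nr1d2, −0.54 to −0.096 for Tef and 0.03 to 1.96 for Clock.

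The other 8 changed sign in at least 1 setting. With median centring and with scaling to the hybridization controls, Cry1 stood at 0.074 and 0.14, Cry2 probe set 1372548_at at 0.11 and 0.20, Tef probe set 1390819_at at 0.13 and 0.21 (0.0021 with cyclic loess) and Clock probe set 1390199_at at 0.11 and 0.19. Leaving out single arrays gave ranges of −0.15 to 0.32 for Per1, −0.18 to 0.051 for Cry1, −0.35 to 0.92 for Cry2 probe set 1369446_at and −0.20 to 0.16 for 1372548_at. The ranges were −0.017 to 0.25 for Nr1d2 probe set 1370541_at, −0.24 to 0.24 for Tef probe set 1390819_at, −0.030 to 0.27 for Clock probe set 1389456_at and −0.29 to 0.24 for 1390199_at. The cause was not tested.

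The difference between the arms was 0.15 with no constant (signals floored at 0.1) and with a constant of 2, 0.24 with 20, 0.27 with no filter, 0.20 with the filter at the 60th percentile, 0.13 with quantile normalization, 0.14 with scaling to the hybridization controls and 0.20 averaging each gene's probe sets. Npas2 dropped out with no constant, a constant of 2, the 60th percentile, quantile normalization and the hybridization controls. Over all probe sets, the number past an adjusted p of 0.05 was 5, and 22 with a constant of 20, 44 with the filter at the 60th percentile, 158 with the hybridization controls, 52 with robust eBayes, 3 with cyclic loess, and 0 with quantile normalization, no filter, eBayes without trend or median centring. Without single arrays it was 0 to 2334. With the replicate block it was 35, of which 0 were clock genes. The deviations of same-numbered arrays correlated at −0.0558, and the labels do not pair them.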
